A study of Homo sapiens with 4 samples.

Results

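The RAB GTPases, the largest branch of the Ras superfamily of small GTP-binding proteins, were examined on oligonucleotide arrays of 2 human cutaneous T cell lymphoma lines. Members were the probe sets, the array's groups of short probes read as 1 value, whose only gene symbol was RAB followed by a number and at most 1 letter. There were 138 of them for 57 genes, among 54675 probe sets in all and 19775 genes with a probe set of their own. Another 11 probe sets listed a RAB beside other symbols and were not counted, and RAB6A, RAB4B and RAB43 had 1 counted probe set each. MyLa is a mycosis fungoides line and HH a cutaneous T cell lymphoma line. The 4 arrays were 1 each of MyLa with 5 ng/ml IL-32γ, MyLa control, HH with 5 ng/ml IL-32γ and HH control, where IL-32γ is an isoform of the cytokine interleukin-32. All cells were kept for 40 hours in 0.1% serum, a low-serum medium that the control cells had too, and each line stands for itself alone.

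Background on these proteins helps in reading the values. A RAB switches between a GDP-bound form held in the cytosol by a GDP dissociation inhibitor and a GTP-bound form anchored in a membrane by prenyl groups. Exchange factors load GTP, GTPase-activating proteins end the signal, and the active form recruits effectors (tethers, motors, adaptors) that move, dock or fuse vesicles of 1 compartment. In T cells RABs are known for recycling the T cell receptor to the surface and for releasing lytic granules.

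The values are log2 expression values deposited after GCRMA, a method that corrects each probe's background by its sequence, normalises arrays and summarises probes. Values below 5 were treated as not measured, and 42.8% to 43.3% of the array's probe sets reached 5 on an array. The 2 arrays of a line were alike over all probe sets (r = 0.994 in MyLa and 0.997 in HH, a correlation over probe sets and not over independent replicates). The T cell markers CD2, CD3D, CD3G, CD247, PTPRC and IL2RG were measured in both lines, while CD3E, CD4 and CD5 were below 5 in MyLa alone and CD7 and LCK in both. Of 6 fibroblast markers 2 (COL1A1 and COL3A1) were measured on both MyLa arrays, 1 on the HH IL-32γ array and 0 on the HH control array, with COL1A2, DCN and LUM at the table's minimum of 2.13 throughout. Of the other marker lists, BLK of B cells was measured on all arrays but the MyLa control, ITGAM of myeloid cells in MyLa alone and KRT10 of keratinocytes on all 4, and the remaining genes of those lists on none. The summed level of the fibroblast list, values below 5 counted as 5, ran from 43.98 to 44.47 in MyLa and from 30.00 to 30.66 in HH, and its part in the results was not tested.

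Of the 57 RAB genes, 35 had a probe set at 5 or more on all 4 arrays, 6 on some arrays only and 16 on none. By probe set, 79 of 138 were measured on all 4 arrays, 15 on 1 to 3 and 44 on none, 41 of these 44 staying below 3. The genes measured throughout came from each of 6 groups of function. RAB1A, RAB1B, RAB2A and RAB2B run transport between the endoplasmic reticulum and the Golgi, and 10 of 14 genes of that group were measured on all 4 arrays. RAB5A, RAB5B, RAB5C, RAB21 and RAB22A direct early endosomes, and these were the 5 of 7 genes measured there. Of 14 recycling and plasma membrane genes 8 were measured throughout, among them RAB8A, RAB10, RAB11A, RAB11B, RAB14 and RAB35. RAB7A, which brings late endosomes to the lysosome, and RAB9A, which serves return from late endosomes to the Golgi, were measured on all 4 arrays as well. Below 5 on every array were RAB25, RAB17 and RAB20, known from epithelia, RAB3B and RAB3C, known from neurons and endocrine cells, and RAB6B, RAB7B, RAB13, RAB15, RAB31, RAB36, RAB39A, RAB40A, RAB42, and the single probe sets of RAB4B and RAB43.

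**Figure D1:**
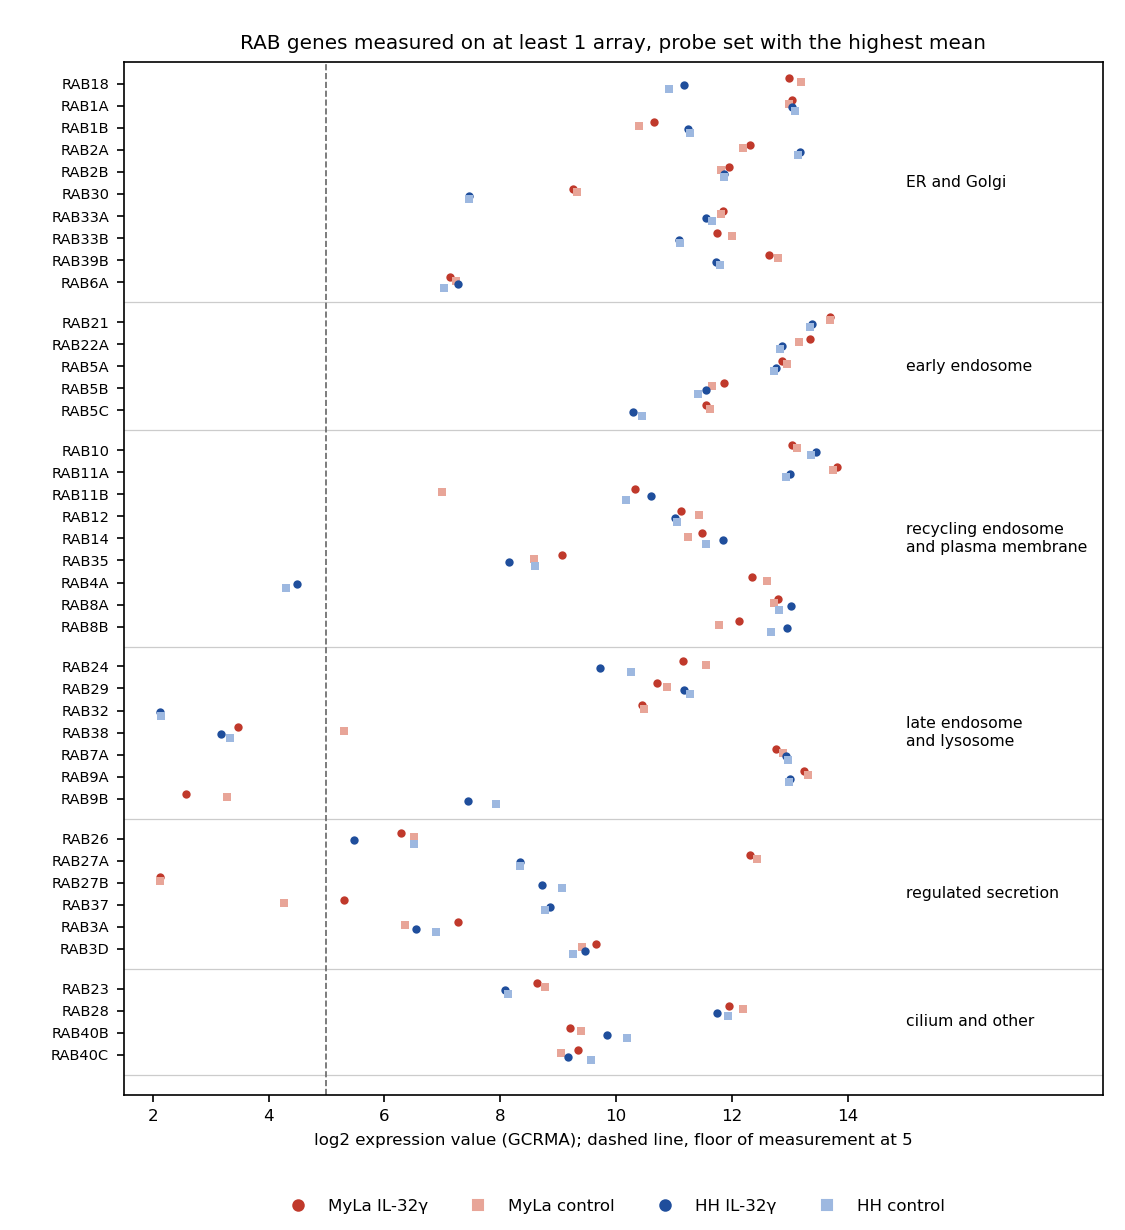
Log2 expression values (x axis) of the 41 RAB genes measured on at least 1 array, by the probe set with the highest mean, in groups of function; circles are IL-32γ arrays and squares control arrays, red MyLa and blue HH, and the dashed line is the floor of 5. Points are compared within a row only, since probe sets differ in brightness: RAB4A, RAB32 and RAB27A sit far to the right in MyLa, RAB9B, RAB27B and RAB37 in HH, and the MyLa control square of RAB11B stands apart at 6.99.

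The first comparison asked how the RAB complement of MyLa differs from that of HH. RAB4A, which recycles cargo from sorting endosomes to the surface, RAB32, which serves lysosome-related organelles, and RAB27A, which docks lytic granules in cytotoxic T cells, were all far higher in MyLa. RAB27B, the close relative of RAB27A, RAB37, another RAB of secretory granules, and RAB9B, the close relative of RAB9A, were higher in HH. RAB18, a RAB of the endoplasmic reticulum and lipid droplets, was higher in MyLa as well. Of 90 RAB probe sets tested in limma, where each line was represented by its 2 arrays, 24 of 9 genes were higher in MyLa (26.7%) and 3 of 3 genes lower (3.33%), at an adjusted p under 0.05 and 2-fold or more. Over all 25273 probe sets tested the shares were 18.2% higher and 16.9% lower. The median difference was 0.315 over the RAB probe sets and -0.011 over all. These shares count several probe sets of 1 gene separately. By the brightest probe set of each gene, 7 RAB genes were higher in MyLa and 3 lower, where 40 RAB genes had tested probe sets. Over 11010 genes counted that way the shares were 18.6% higher and 16.6% lower. These lines are cultures with no cell composition known, and in bulk RNA fewer cells expressing a gene and less RNA per cell cannot be told apart.

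RAB4A read 12.35 on the MyLa IL-32γ array and 12.61 on the MyLa control array, against 4.50 and 4.31 on the HH IL-32γ and HH control arrays. Its other probe sets, 203582_s_at and 206272_at, read 10.70 and 9.80 with IL-32γ and 10.38 and 10.27 without in MyLa, and no more than 2.86 in HH. The 3 probe sets thus split the lines the same way, with both HH arrays below the floor, so each fold is a bound: at least 178-fold, 46.5-fold and 32.8-fold (limma adjusted p = 0.000146, 0.000268 and 0.000529).

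RAB32 was likewise measured in MyLa alone. Its probe set 204214_s_at read 10.45 with IL-32γ and 10.48 without in MyLa, against 2.13 and 2.15 in HH, and 228161_at read 8.15 and 8.21, against 2.13 and 2.13. This is at least 44.1-fold and 9.04-fold (limma adjusted p = 0.000146 and 0.000348), with HH at or near the lowest value the table holds. RAB38, the nearest relative of RAB32 and its partner in melanosome formation, read 3.48 with IL-32γ and 5.30 without in MyLa, against 3.18 and 3.33 in HH, so it was measured on the MyLa control array alone and was not tested.

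The RAB27 pair differed in opposite directions. The brightest RAB27A probe set, 209515_s_at, read 12.31 with IL-32γ and 12.43 without in MyLa, against 8.34 and 8.35 in HH, 16.3-fold higher (MyLa minus HH 4.03 ± 0.11 SE on the log2 scale, n = 2 arrays per line, limma adjusted p = 0.00025). All 5 RAB27A probe sets were higher in MyLa, by 12.6-fold to at least 30.9-fold, and 2 of them were below 5 in HH. RAB27B probe set 228708_at read 2.13 on both MyLa arrays, against 8.73 with IL-32γ and 9.06 without in HH, a difference of -3.90 with the MyLa values raised to 5 and so at least 14.9-fold lower (limma adjusted p = 0.000548). The other 2 RAB27B probe sets were below 5 on all arrays, at 4.01 and 4.11 in HH for the higher of them. So HH held signal of both RAB27 genes and MyLa of RAB27A alone.

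RAB37 and RAB9B were each read by 1 probe set. RAB37 had 5.30 with IL-32γ and 4.26 without in MyLa, against 8.86 and 8.78 in HH, so 1 of the 2 MyLa arrays measured it. The difference was -3.67 with the MyLa control value raised to 5 (limma adjusted p = 0.000588) and -4.04 with no floor, where it was not called. RAB9B had 2.57 and 3.28 in MyLa, against 7.44 and 7.92 in HH, at least 6.39-fold lower (limma adjusted p = 0.00231). Its relative RAB9A did not pass the test, at 13.25 and 13.31 in MyLa, against 13.01 and 12.99 in HH (log2 difference 0.28, limma adjusted p = 0.104).

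The sequences just before the start sites of 4 of these genes are shown because 3 of them (RAB4A, RAB32 and RAB9B) were at the floor in 1 line and RAB11B had the largest IL-32γ difference of the family. Each is the 250 bases before the annotated start, 5′ to 3′ on the gene's strand, from RefSeq on GRCh38.p14, which is the build of the sequence table and not of the array. Capitals mark CpG, the dinucleotide that carries DNA methylation in human cells.
RAB4A: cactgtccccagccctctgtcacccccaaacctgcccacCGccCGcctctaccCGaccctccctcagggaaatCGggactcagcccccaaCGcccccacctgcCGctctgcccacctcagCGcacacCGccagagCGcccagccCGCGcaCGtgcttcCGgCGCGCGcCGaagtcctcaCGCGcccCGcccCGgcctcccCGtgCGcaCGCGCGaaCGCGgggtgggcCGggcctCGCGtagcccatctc
RAB32: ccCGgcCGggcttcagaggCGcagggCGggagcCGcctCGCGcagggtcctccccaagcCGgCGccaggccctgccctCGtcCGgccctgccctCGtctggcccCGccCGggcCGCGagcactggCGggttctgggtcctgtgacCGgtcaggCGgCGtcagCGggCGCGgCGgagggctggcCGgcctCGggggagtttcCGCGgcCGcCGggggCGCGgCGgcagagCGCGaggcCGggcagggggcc
RAB9B: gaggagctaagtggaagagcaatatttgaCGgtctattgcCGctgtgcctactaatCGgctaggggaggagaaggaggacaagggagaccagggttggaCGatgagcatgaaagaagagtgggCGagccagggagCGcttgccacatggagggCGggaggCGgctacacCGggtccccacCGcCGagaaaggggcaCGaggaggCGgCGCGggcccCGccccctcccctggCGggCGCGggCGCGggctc
RAB11B: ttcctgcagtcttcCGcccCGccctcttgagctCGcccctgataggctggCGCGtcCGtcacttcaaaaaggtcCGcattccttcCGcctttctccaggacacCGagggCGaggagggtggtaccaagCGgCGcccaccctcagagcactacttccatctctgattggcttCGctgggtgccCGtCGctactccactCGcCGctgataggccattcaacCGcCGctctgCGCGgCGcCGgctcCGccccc

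RAB4A's window lies at chr1:229270861-229271110 (plus strand), RAB32's at chr6:146543583-146543832 (plus strand), RAB9B's at chrX:103832258-103832507 (minus strand) and RAB11B's at chr19:8390110-8390359 (plus strand). They hold 31, 36, 21 and 24 CpG, where the median over the 35116 windows of the same length in the table is 11. Of all windows 89.1%, 95.1%, 69.8% and 76.3% hold fewer CpG than these, in the same order. The table held a start site for 45 of the 57 RAB genes. GGGCGG, a GC box, was found 2, 2, 2 and 3 times on either strand, and 42.6% of all windows hold it. CACGTG, an E-box, was found once, in RAB4A's window (6.34% of all windows), and TATAAA in none of the 4 (10.7%). DNA methylation was not measured here, so these counts describe the sequence alone.

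Among the RABs measured in both lines, RAB18 was higher in MyLa with all 6 of its measured probe sets. Its brightest probe set, 224787_s_at, read 12.98 with IL-32γ and 13.20 without in MyLa, against 11.17 and 10.91 in HH, and the 6 probe sets differed by 3.10-fold to 5.98-fold (limma adjusted p from 0.00149 to 0.011). RAB30, a Golgi RAB, was higher in MyLa with 2 of its 3 tested probe sets, by 3.54-fold and 2.91-fold, and the third gave 2.38-fold (limma adjusted p = 0.0534). RAB5C was higher with both (2.33-fold and 3.02-fold), RAB24, linked to autophagy, with its only one (2.56-fold), and RAB39B, known from an X-linked intellectual disability, with 1 of 2 (2.11-fold; the other at 1.95-fold). For RAB11A, the slow-recycling RAB that is nearest in sequence to RAB11B, 234998_at read 10.49 and 10.60 in MyLa, against 8.67 and 8.70 in HH (3.64-fold, limma adjusted p = 0.00129). The RAB11A probe set 200864_s_at gave 2.07-fold, and the brightest, 200863_s_at, 1.76-fold, under the 2-fold minimum, so its size depends on the probe set. RAB25, the third of that group, was at 2.13 on every array.

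The call rests on few arrays. Without the HH IL-32γ array 15 probe sets were higher in MyLa, and without the HH control array also 15. For probe sets below 5 in 1 line the floor sets that line's spread to 0, and with no floor 18 were higher and 3 lower. With no floor the calls of RAB37, RAB24, RAB11A 200864_s_at, RAB5C 201156_s_at, RAB30 228390_at and RAB18 229398_at and 243496_at were lost, so the 3 lower probe sets are then not those of the main test. Leaving out any 1 of the 4 arrays ended the calls of RAB24, RAB11A 200864_s_at, RAB5C 201156_s_at and RAB18 229398_at and 243496_at. Leaving out 1 HH array, whichever of the pair, ended those of RAB18 224787_s_at and 239637_at and RAB39B 238695_s_at, and leaving out 1 MyLa array those of RAB9B and RAB27A 222294_s_at and 235766_x_at. RAB30 228390_at lost its call without the HH control array or a MyLa array, and RAB4A 206272_at without the HH IL-32γ array. Thus 4 of the 6 RAB18 probe sets and 2 of the 5 of RAB27A lost their call without some array. The fit then has fewer arrays, and the differences stood at -2.68 for RAB9B, 5.03 for RAB4A 206272_at and 1.92 to 2.18 for RAB18 224787_s_at, against 2.05 with all arrays for the last. The spread between the 2 arrays of a line includes any effect of IL-32γ, since those arrays differ in treatment. The labels do not say that they came from separate cultures, and the p-values measure that spread alone.

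**Figure D2:**
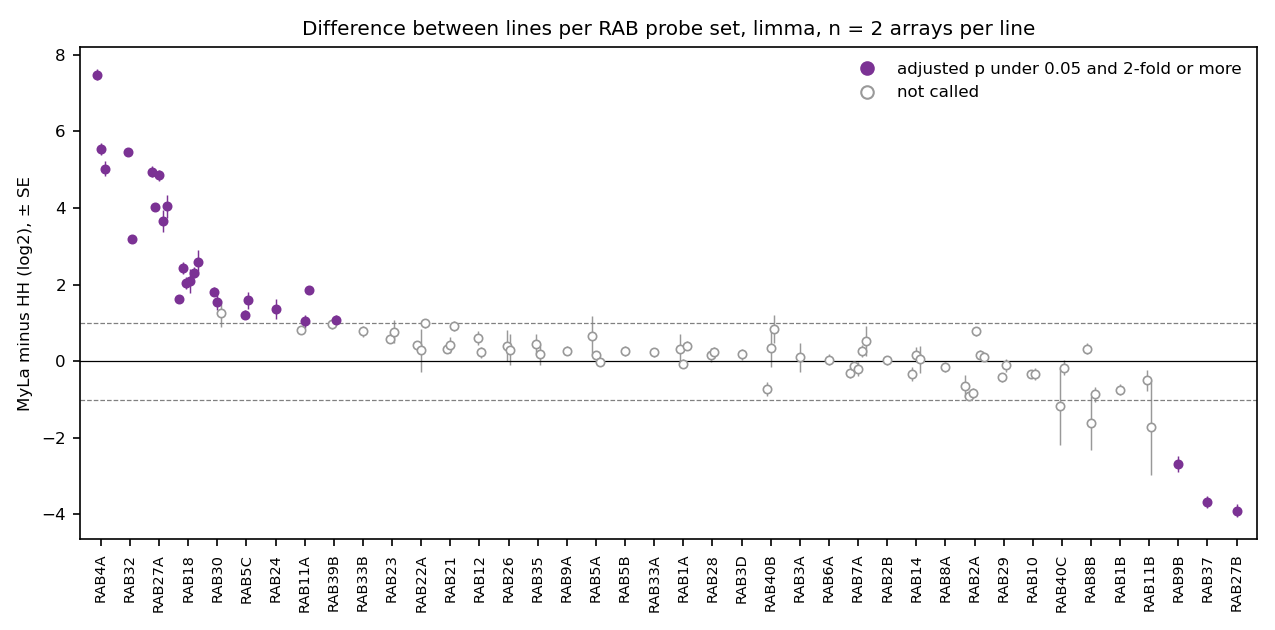
MyLa minus HH on the log2 scale (y axis, ± SE from limma, n = 2 arrays per line) of the 90 tested RAB probe sets, by gene (x axis, ordered by mean difference), with filled points past an adjusted p of 0.05 and 2-fold and dashed lines at 2-fold. RAB4A, RAB32, RAB27A and RAB18 stand at the MyLa end with all their points filled and RAB9B, RAB37 and RAB27B at the HH end, while the long bars of RAB11B and RAB40C come from arrays of 1 line that differ between themselves.

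The second comparison was IL-32γ against control in MyLa. The largest higher values were those of RAB11B, which moves recycling endosomes to the surface (10.1-fold), RAB8B of exocytic transport (3.37-fold), RAB22A of early endosomes (2.45-fold), and RAB40C (6.48-fold) and RAB40B (2.38-fold), whose SOCS box joins a cullin ubiquitin ligase. In nearly every case another probe set of the same gene showed less or the opposite. With 1 array per condition these are differences of 2 arrays, with no test. At 1.5-fold or more, 11 of 92 measured RAB probe sets were higher (12.0%) and 3 lower (3.26%), against 11.0% and 9.14% of all 24199 measured probe sets. The share higher was thus near that of all probe sets. By function, 5 of 23 recycling and plasma membrane, 2 of 12 early endosome, 2 of 9 cilium and other, 1 of 10 secretion, 1 of 25 endoplasmic reticulum and Golgi and 0 of 13 late endosome probe sets were higher. The median difference was -0.060 over the RAB probe sets and -0.045 over all.

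RAB11B had 2 probe sets, both higher. Probe set 34478_at read 10.33 on the MyLa IL-32γ array and 6.99 on the MyLa control array, against 10.60 and 10.17 in HH. Probe set 217793_at read 8.76 and 8.05 in MyLa, against 8.87 and 8.93 in HH. For both the MyLa control array was the low one, and the MyLa IL-32γ value lay close to the HH values. The sizes disagree, a log2 difference of 3.33 (10.1-fold) against 0.70 (1.63-fold). RAB11A differed by 0.06, 0.32 and -0.11 over its 3 probe sets in MyLa.

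RAB40C showed the same shape, while a RAB8B probe set shared the low MyLa control value but was higher with IL-32γ in HH too (0.74). RAB40C probe set 227269_s_at read 7.82 with IL-32γ and 5.13 without in MyLa, against 7.78 and 7.52 in HH, and its control value is close to the floor. The other measured RAB40C probe set, 227698_s_at, read 9.34 and 9.05 in MyLa, against 9.17 and 9.56 in HH, a difference of 0.29. RAB8B probe set 222846_at read 8.23 and 6.47 in MyLa, against 9.33 and 8.59 in HH, while 226633_at and 219210_s_at differed by 0.36 and -0.30 in MyLa. Of the 79 RAB probe sets measured on all 4 arrays, 4 had the MyLa control array 1.5-fold or more below each of the other 3 arrays: both of RAB11B and these of RAB8B and RAB40C. With another array as the low one, the counts were 0 for MyLa IL-32γ, 8 for HH IL-32γ and 3 for HH control. The shares over all probe sets were not computed.

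On the same arrays the control probe set near the 5′ end of ACTB read 11.81 with IL-32γ and 10.12 without in MyLa, against 13.58 and 12.69 in HH, lowest on the MyLa control array. The ACTB probe set near the 3′ end read 15.07 and 15.14 in MyLa, against 15.24 and 15.27 in HH. The 5′ GAPDH probe set was higher with IL-32γ by 0.68 in MyLa and 0.15 in HH. Where the RAB probes lie along their transcripts was not examined, and the part of these 5′ differences in the RAB values was not tested.

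**Figure D3:**
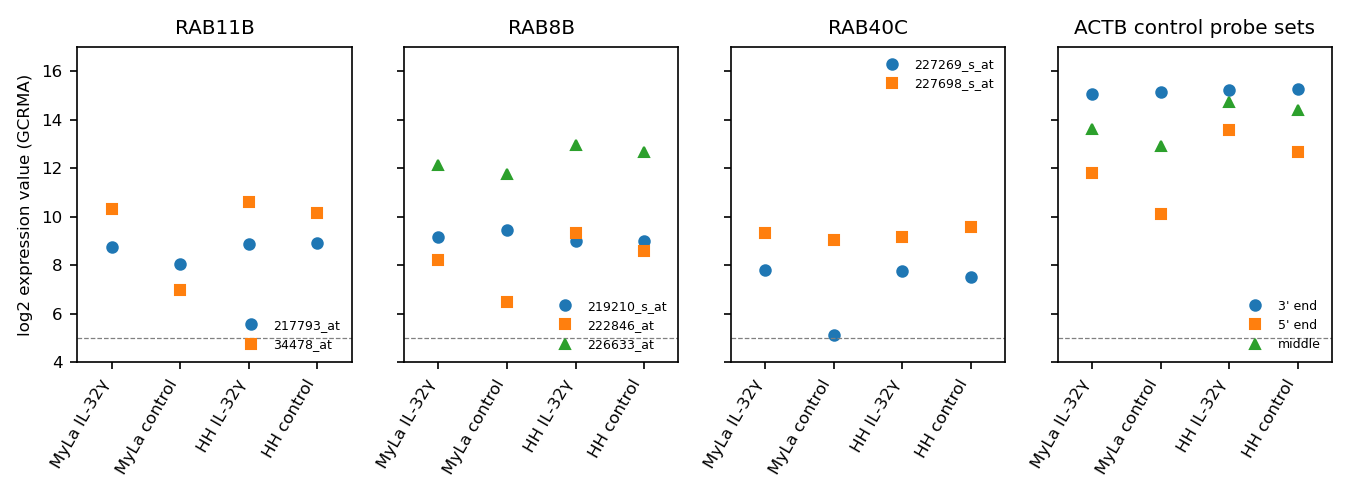
Log2 expression values (y axis) on the 4 arrays (x axis) of each probe set of RAB11B, RAB8B and RAB40C measured on all of them, and of the ACTB control probe sets at the 3′ end, the middle and the 5′ end of the transcript; 1 array per condition, so there are no error bars, and the dashed line is the floor of 5. The MyLa control array is low for 34478_at (6.99), 222846_at (6.47), 227269_s_at (5.13) and the 5′ ACTB probe set (10.12), while the 3′ ACTB probe set is level (15.14).

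Most of the remaining higher probe sets in MyLa belonged to genes whose brightest probe set differed less. RAB22A 215507_x_at read 12.58 with IL-32γ and 11.29 without, while the brighter 213405_at read 13.35 and 13.16. RAB1A, which starts transport out of the endoplasmic reticulum, was higher by 0.95 with 207791_s_at and by 0.05 with the brightest, 208724_s_at. RAB5A was higher by 0.92 with 206113_s_at (8.90 with IL-32γ and 7.97 without) and stood at -0.09 with 209089_at (12.87 and 12.96). RAB14, which links the Golgi and endosomes, gave 0.64, 0.25 and 0.22, all of 1 sign. RAB35, a RAB of fast recycling at the plasma membrane, gave 0.66 and 0.47 with its 2 probe sets measured on both arrays. RAB3A, a RAB of synaptic and secretory vesicles with a single probe set, read 7.28 and 6.36. RAB40B went both ways, higher by 1.25 with 217597_x_at and lower by 0.71 with 236211_at, while its brightest probe set differed by -0.18. RAB12 235059_at and RAB7A 1570061_at were lower, at least 2.48-fold and 1.82-fold since both went below 5 with IL-32γ, while the brightest probe sets of these genes differed by -0.30 and -0.11.

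Taking each gene's brightest probe set alone, 2 of 39 RAB genes were higher in MyLa, RAB11B and RAB3A, and 0 lower, where 7.77% and 7.65% of 10497 genes were. Among the other RAB probe sets 9 of 53 were higher and 3 lower, together 22.6%, against 24.4% of the other probe sets of all named genes. In MyLa dimmer probe sets of a gene thus held most of the differences for RABs, and also for all named genes (2284 against 1619 of brightest probe sets). Of the brightest probe sets alone, 5.13% passed for RABs in either direction and 15.4% for all named genes. Of 11 RAB genes with a probe set past 1.5-fold and another one measured, 1 had every measured probe set past it in the same direction, RAB11B, and 6 had 1 of opposite sign. These counts were not made for all genes, so they do not set the RABs apart.

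**Figure D4:**
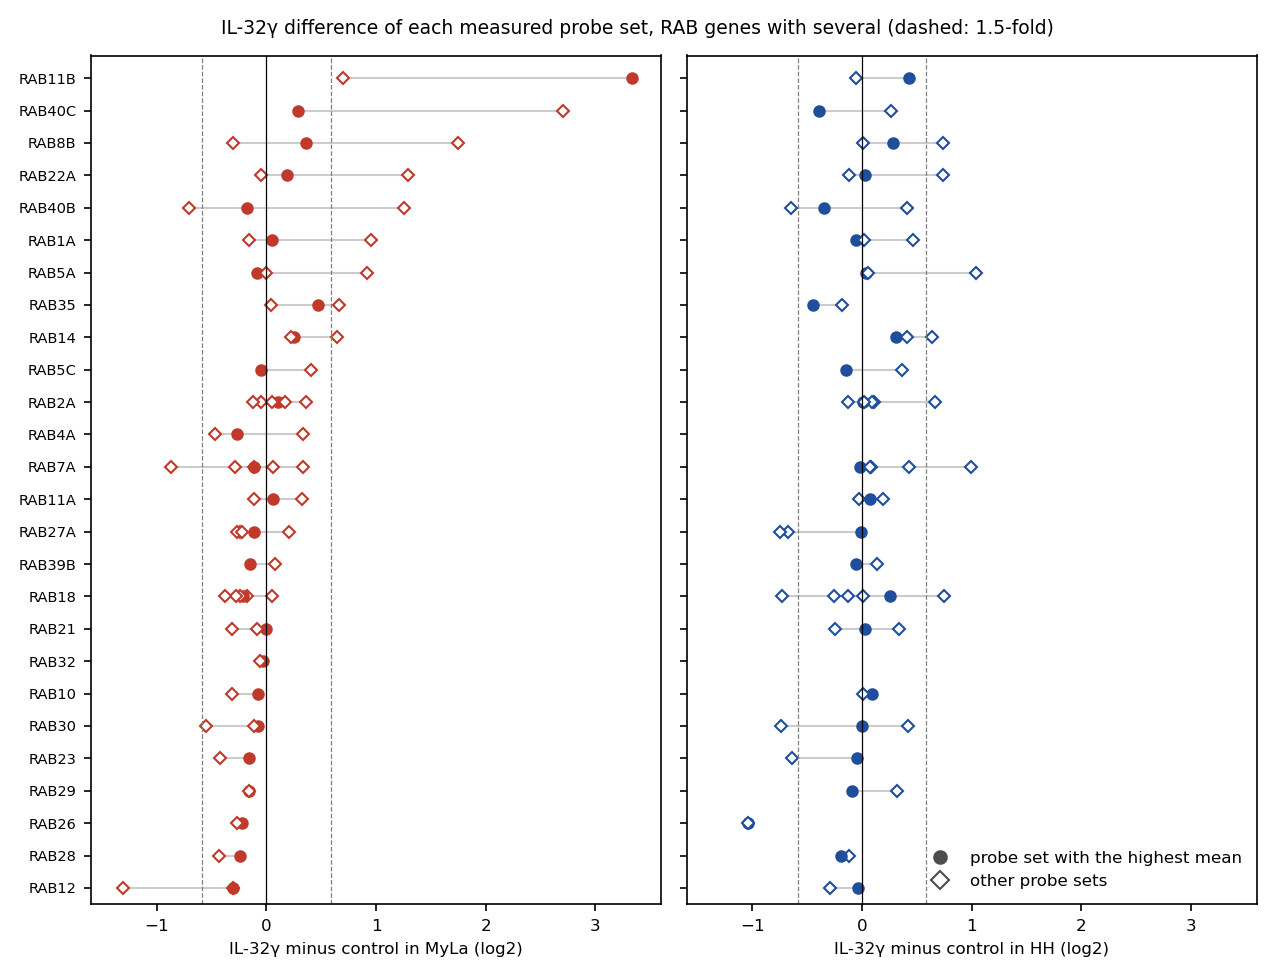
IL-32γ minus control on the log2 scale (x axis) of every measured probe set of the 26 RAB genes (y axis) that have several, in MyLa (left, red) and HH (right, blue), with filled circles for the probe set with the highest mean, open diamonds for the others and dashed lines at 1.5-fold; each point is a difference of 2 arrays, with no error bar. Filled circles lie within 1.5-fold except RAB11B in MyLa (3.33) and RAB26 in HH (-1.04), and the probe sets of RAB40C, RAB8B, RAB40B and RAB22A spread widely in MyLa.

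The third comparison was IL-32γ against control in HH. RAB26, which recruits vesicles of the secretory pathway, was the 1 RAB gene with several probe sets that were all past 1.5-fold: 219562_at read 5.48 with IL-32γ and 6.52 without, and 50965_at read 5.16 and 6.20, both 2.06-fold lower and both ending close to the floor. How often all probe sets of a gene pass 1.5-fold together was not counted over the array. In MyLa the same 2 RAB26 probe sets differed by -0.22 and -0.27. RAB11B stayed within 1.5-fold in HH, at 0.43 and -0.06. At the same 1.5-fold minimum, 7 of 83 measured RAB probe sets were higher (8.43%) and 8 lower (9.64%), against 5.43% and 4.02% of all 23821, with no test. The median difference was 0.012 over the RAB probe sets and -0.025 over all.

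Lower values in HH were also seen for dimmer probe sets of RAB27A, 222294_s_at (7.71 with IL-32γ and 8.39 without) and 235766_x_at (7.59 and 8.34). The brightest RAB27A probe set stood at -0.01. RAB30 229072_at (6.05 and 6.80), RAB40B 236211_at (5.15 and 5.80), RAB23 229504_at (6.02 and 6.66) and RAB18 243496_at (5.67 and 6.40) were lower too. RAB23 is a RAB known for restraining Hedgehog signalling. All of these end at 6.05 or less apart from RAB27A, and RAB18 229398_at went the opposite way (7.02 and 6.27). With a floor of 6 in place of 5, 4 probe sets were lower in place of 8, and RAB26 shrank to -0.52 and -0.20.

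Higher values in HH were those of RAB5A 206113_s_at (8.28 with IL-32γ and 7.24 without), RAB7A 227602_at (11.06 and 10.07), RAB8B 222846_at (9.33 and 8.59), RAB22A 215507_x_at (12.02 and 11.28), RAB2A 208730_x_at (10.58 and 9.92), RAB14 211503_s_at (11.33 and 10.68) and RAB18 229398_at. None of these is the brightest probe set of its gene. The brightest differed by 0.04 for RAB5A, -0.02 for RAB7A, 0.28 for RAB8B, 0.03 for RAB22A, 0.01 for RAB2A, 0.31 for RAB14 and 0.25 for RAB18. By the brightest probe set, 0 of 38 RAB genes were higher and 1 lower (RAB26), where 1.14% and 4.46% of 10307 genes were. Among the other RAB probe sets in HH, 14 of 45 passed in either direction (31.1%), against 12.1% of the other probe sets of all named genes. Probe sets of 1 gene differed among themselves by 1.5-fold or more in 12 of 24 RAB genes with several, against 24.9% of 5158 genes, and in MyLa in 11 of 26 (42.3%), against 41.2% of 5264.

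Across both lines, 4 RAB probe sets were higher by 1.5-fold or more in each: those of RAB5A (206113_s_at), RAB8B (222846_at), RAB14 (211503_s_at) and RAB22A (215507_x_at). RAB40B 236211_at was lower in both. This is 4.94% and 1.23% of the 81 RAB probe sets measured in both lines, against 2.12% and 1.01% of 21787 over the array. None of the 4 higher ones is the brightest probe set of its gene. The brightest differed by -0.09 in MyLa and 0.04 in HH for RAB5A and by 0.36 and 0.28 for RAB8B. For RAB14 it differed by 0.25 and 0.31, and for RAB22A by 0.19 and 0.03. When limma was fitted with a term for the line, leaving 1 residual degree of freedom, 0 of the 90 RAB probe sets passed an adjusted p of 0.05, as did 0 of 25273 in all (0.0%). At an unadjusted p under 0.05 there were 8 RAB probe sets higher and 5 lower (14.4%), against 10.1% of all. The smallest unadjusted p of the family was that of RAB5A 206113_s_at (mean log2 difference 0.98, higher in 2 of 2 lines, unadjusted p = 0.00323, limma adjusted p = 0.484), and RAB11B 34478_at had a mean difference of 1.88 at a limma adjusted p of 0.545. The difference of the 5′ ACTB control on these pairs of arrays was 1.69 in MyLa and 0.89 in HH, and its part in the RAB values was not tested.

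Genes that load, unload or serve RABs were taken from 5 lists, each gene by its brightest probe set. In MyLa with IL-32γ, 0 of 7 prenylation and delivery genes, 1 of 37 exchange factors, 2 of 28 GTPase-activating proteins, 1 of 36 effectors and 2 of 20 recycling cargo and tether genes passed 1.5-fold upwards, and 0, 1, 2, 3 and 0 of them downwards, where 7.77% of all 10497 genes passed it upwards and 7.65% downwards. The genes named were those measured on all 4 arrays with the largest difference in any comparison, and EEA1, GDI2 and RABGGTB were added after their values were seen. EEA1, the RAB5 effector that tethers early endosomes, read 9.72 with IL-32γ and 8.42 without, and the RAB27 effector SYTL3 read 9.54 and 10.37. MICALL1, an effector of recycling endosomes, was at 10.90 and 11.79, and EHD1, an ATPase of the same membranes, at 8.26 and 7.65. In HH 0 genes of the 5 lists passed it upwards, and 0 of 7, 1 of 35, 3 of 27, 0 of 34 and 0 of 21 downwards, where 1.14% and 4.46% of all 10307 genes did. Among the 4 was the GTPase-activating protein TBC1D1 (7.09 with IL-32γ and 7.67 without). The delivery genes GDI2, which extracts RABs from membranes, and RABGGTB, a subunit of the RAB prenyl transferase, differed by 0.11 and 0.01 in MyLa and by 0.01 and 0.08 in HH.

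Between the lines, of 37 tested effectors 8 were higher in MyLa and 3 lower, and of 36 exchange factors 5 higher and 4 lower, where 18.6% and 16.6% of 11010 genes were. Of 29 GTPase-activating proteins 4 were higher and 3 lower, of 21 cargo and tether genes 1 and 5, and of 7 delivery genes 0 and 1. RAB11FIP1, which binds RAB11 and RAB4 on recycling endosomes, read 14.22 with IL-32γ and 13.90 without in MyLa, against 9.15 and 9.47 in HH (MyLa minus HH 4.75, limma adjusted p = 0.00056). The exchange factor SBF2 read 12.96 and 13.38 in MyLa, against 8.15 and 8.49 in HH (4.85, limma adjusted p = 0.000729), and DENND3, which activates RAB12, 10.20 and 9.59, against 12.88 and 13.11 (-3.10, limma adjusted p = 0.00294). DENND6B, of the same list, was higher in MyLa (3.09, limma adjusted p = 0.000989).

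VAMP8, a SNARE of granule fusion, read 7.90 and 8.12 in MyLa, against 12.79 and 12.65 in HH (-4.71, limma adjusted p = 0.000286), and SYTL3 was lower in MyLa as well (-1.94, limma adjusted p = 0.0162). Of the cargo and tether genes, EHD1 was also lower (-3.60, limma adjusted p = 0.00208) and STX4 higher (1.80, limma adjusted p = 0.00264). TBC1D10C, which brakes T cell receptor signalling, was lower in MyLa, at 6.22 and 6.40, against 9.55 and 9.97 in HH (-3.45, limma adjusted p = 0.00115). TBC1D31 and TBC1D1, of the same list, differed by -1.24 and 1.80 (limma adjusted p = 0.0029 and 0.0139). Larger differences were those of EVI5 and USP6NL, higher in MyLa and not measured on all 4 arrays. They stood at 6.62 and 6.12 with HH values below 5 raised to 5 (limma adjusted p = 0.000153 and 0.000138). CHML, an escort of new RABs to the prenyl transferase, differed by -1.45 (limma adjusted p = 0.00265). ARL6IP5 and RABIF, of the same delivery list, differed by 0.91 and 0.72, under the 2-fold minimum (limma adjusted p = 0.00656 and 0.0263). Chosen after their values were seen, MLPH, which ties RAB27A to myosin in melanocytes, read 2.19 on both MyLa arrays, against 12.10 and 12.27 in HH, and UNC13D, the RAB27A effector of lytic granules, was below 5 on all 4 arrays. RPH3AL, another RAB27 effector, went the other way, at 7.53 and 7.88 in MyLa, against 2.27 and 2.73 in HH (2.71 with the HH values raised to 5, limma adjusted p = 0.00134), and SYTL2 did not pass the test (-0.51, limma adjusted p = 0.0827). The RAB27 effectors named here thus had no common direction.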

How the data were processed

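RNA of each line and condition was read on 1 array after biotin labelling with 1 round of amplification, per the labels' protocols. The authors deposited log2 values per probe set made with GCRMA, per the submitters' processing notes. Its version, and whether all 4 arrays were normalised together, is not given in the sources used here. The log2 scale was read from the values, from 2.13 to 16.0.

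Symbols came from the array's annotation, updated through Entrez identifiers with a RefSeq table (GRCh38.p14). Of 54675 probe sets 41097 had 1 symbol, 1801 several and 11777 none listed. The 62 control probe sets were left out of fits. Values below 5 were raised to 5, and within a line a difference was taken where either array reached 5. The models (limma 3.58.1, R 4.3.3) covered the 25273 probe sets that reached 5 on 2 or more of the 4 arrays, with Benjamini-Hochberg adjustment over all of them and two-sided tests. IL-32γ across lines had the line as a block (1 residual degree of freedom), and MyLa minus HH had no block (2 residual degrees of freedom). The fits were tested on simulated data of probe sets above the floor on all arrays, with no floor applied. Values raised to 5 were thus not covered by that check. The number of arrays limits the precision of every value.

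The members and the lists were chosen with earlier results of these data known. Named were all probe sets of RAB11B, RAB11A and RAB25, every member past a threshold (up to 10 per direction between lines), up to 3 members of each functional group, and up to 3 genes per partner list with the largest difference in any comparison among those measured on all 4 arrays. RAB38, RAB9A, EEA1, GDI2, RABGGTB, MLPH, UNC13D, RPH3AL, SYTL2, EVI5, USP6NL and further between-line probe sets were added after their values were seen. Further tools were Python 3.11.15, pandas 2.3.3, numpy 2.4.6 and matplotlib 3.10.9. Alternatives were other floors, scalings, blocks and fold minimums, an intensity trend, 1 probe set per gene, dropping probe sets whose suffix marks probes shared between transcripts, and leaving out each array.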

Additional observations from a re-analysis of the deposited data

Results flagged for a closer look

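Of the RAB probe sets measured on all 4 arrays, 5 differed by 1.5-fold or more with IL-32γ in 1 line and had the opposite sign in the other. The same count over all probe sets was not made, so whether 5 is unusual is not known. The difference between the lines was not tested, since each line has 1 array per condition. RAB3A stood at 0.92 in MyLa and -0.36 in HH, 1.27 apart. RAB35 225620_at stood at 0.66 and -0.18, 0.84 apart, and its brighter probe set showed the same signs (0.47 and -0.45). RAB11B 217793_at stood at 0.70 and -0.06, 0.77 apart, while 34478_at was higher in both lines (3.33 and 0.43). RAB27A 235766_x_at stood at 0.21 and -0.75, 0.96 apart, with the brightest probe set at -0.11 and -0.01. RAB18 229398_at stood at -0.24 and 0.75, so MyLa minus HH was -0.99, with the other RAB18 probe sets in HH between -0.73 and 0.25.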

How the results depend on the processing

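The counts of RAB probe sets did not move beyond 1.5 times their value under median centring, quantile normalisation or an intensity trend, and no named probe set changed direction under any alternative run. Counts moved with the choice of probe set. With 1 probe set per gene, 2 were higher and 0 lower in MyLa with IL-32γ, 0 higher and 1 lower in HH, and 7 higher in MyLa than in HH, partly because genes are then counted. Without probe sets whose suffix marks shared probes, 5 were higher in MyLa and 3 higher in HH with IL-32γ, and 10 were higher in MyLa than in HH. A 2-fold minimum left 5 higher and 1 lower in MyLa, and 1 higher and 2 lower in HH. With a floor of 6, 1 was lower in MyLa and 4 lower in HH, and with no floor 5 were lower in MyLa. With no fold minimum 8 were lower in MyLa than in HH. Leaving out each array in turn gave 15 to 18 higher and 2 to 4 lower in MyLa than in HH, the lone array of a line then being assumed to vary like those of the other line. IL-32γ across lines gave 0 calls under every alternative run, also without the line block. With the IL-32γ treatment as a block, 25 probe sets were higher and 4 lower in MyLa than in HH. Beyond these blocks no paired analysis was possible, since each line has 1 array per condition. The labels give no replicate numbers. Probe sets near the floor limit the smaller differences, and 1 array per condition leaves no replicate error within a line.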

Other observations

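Of the 11 probe sets that list a RAB beside other symbols, and so were named for no gene, 6 were measured on all 4 arrays. Their IL-32γ differences ran from -0.13 to 1.10 in MyLa and from -0.38 to 0.07 in HH. RAB11FIP5, another RAB11-binding protein, read 10.39 with IL-32γ and 10.09 without in MyLa and 2.28 on both HH arrays. Like RAB11FIP1, it was higher in MyLa. RAB11FIP2 (MyLa minus HH 0.67, limma adjusted p = 0.055) and RAB11FIP3 (limma adjusted p = 0.993) did not pass the test. RAB11FIP4 was below 5 on all 4 arrays and was not tested. DENND2D read 10.68 and 11.08 in MyLa, against 2.13 and 2.25 in HH. DENND2D and the RAB11FIP genes other than RAB11FIP1 were chosen after their values were seen.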
